A study of Mus musculus with 8 samples.

Results

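Radiation was applied to B16F1 melanomas in 2 kinds of host, and the question here was which genes responded to it differently in mice that lack both receptors for tumour necrosis factor (TNF). B16F1 is a mouse melanoma line; its cells were injected under the skin of the right hind limb. The WT hosts were C57BL/6-NCr mice. The TNFR KO hosts were TNFR 1, 2 -/- mice from the stock B6;129S-Tnfrsf1a[tm1Imx] Tnfrsf1b[tm1Imx]/J, whose name carries 129 as well as B6, although the strain label of every sample reads C57BL/6. All mice were 8 to 12 weeks old at the start, 5 to 7 were injected per host, and tumours had reached 268 to 478 mm3. Within each host a group was left untreated and another received a single dose of 20 Gy of X-rays to the limb, with the body shielded by lead, and whole tumours were taken 5 h later. Each group's RNA was mixed into 1 pool, and 2 arrays were run from every one of the 4 pools, so all 8 of the series' 8 arrays enter each result. The receptors were absent from the host only: the tumour cells carried their own receptor genes in every group. With 1 pool per group there was no replicate of any condition. All errors and p-values below measure the spread between duplicate arrays of the same RNA, and none between tumours or animals.

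TNF is a cytokine released mainly by macrophages, and its receptors, TNFR1 (Tnfrsf1a) and TNFR2 (Tnfrsf1b), switch on the transcription factor NF-kB. NF-kB targets include chemokines that draw in neutrophils and monocytes, adhesion molecules of vessel walls, and inhibitors such as Nfkbia and Tnfaip3 that end the signal. Ionising radiation breaks DNA and activates p53 within the irradiated cell, a route that does not pass through TNF receptors.

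For each gene the response was the mean log2(signal + 16) of the irradiated arrays minus that of the untreated arrays. The interaction was the response in TNFR KO hosts minus the response in WT hosts, so a negative interaction means a lower response in TNFR KO. Signal is the array's brightness for a gene on a linear scale, equalised between arrays. A difference was called when it reached 2-fold (1 on the log2 scale) with an adjusted p under 0.05 by limma over all 11345 genes tested. Only differences called in this way are said below to have risen or fallen.

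Melanocyte markers identified the tumours as melanoma: the 15 tested read 214919 to 254394 in sum on the 8 arrays, and none was called in a response or in the interaction. Their median response was 0.039 in WT and -0.035 in TNFR KO. Correlations were 0.975 to 0.981 between duplicate arrays, 0.971 to 0.972 across treatments within a host and 0.955 to 0.964 across hosts. Controls added before labelling set the hosts apart: the dap transcript averaged 12784 untreated and 22058 irradiated in WT but 15.2 untreated and 19.4 irradiated in TNFR KO. Whether the hosts were labelled together is not given in the sources used here, and the part of this difference where levels of the hosts are set side by side was not tested. The responses lie within a host, but the controls added before labelling differed there too. Among WT pools, lys, phe and thr were 1.94 to 2.25 times as bright irradiated as untreated, near the 2-fold limit. For dap the ratio was 1.61 or 1.73, by probe group. In TNFR KO these controls averaged only 8.1 to 24.7. For 18S ribosomal RNA the irradiated pool had 1.16 times the untreated signal with WT hosts, against 1.79 times with TNFR KO hosts. The array median went in WT from between 62.2 and 65.1 to between 78.9 and 79.5. All TNFR KO array medians lay between 72.9 and 77. Xist, the RNA of the inactive X chromosome in female cells, read 191 and 214 untreated and 417 and 398 irradiated in WT, and 876 and 903 untreated and 634 and 604 irradiated in TNFR KO, an interaction of -1.47 ± 0.10 (limma adjusted p = 0.00258), a call lost with the mean of its probe sets (-1.09). The probe sets of Eif2s3y, Uty and Kdm5d, genes of the Y chromosome, read between 0.5 and 53.8 on the 8 arrays. The sex of the mice was not given in the sources used here. The part of these differences in the results was not tested. In bulk tumour RNA, fewer cells of a type and less RNA per cell cannot be told apart.

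Tnfrsf1a read 2653 and 2752 in untreated WT, 3933 and 3816 in irradiated WT, 3279 and 3539 in untreated TNFR KO and 4340 and 4053 in irradiated TNFR KO tumours. The transcript was thus detected in the receptor-deficient hosts as in WT, and whether its probe set lies in the disrupted part is not known here. Its interaction was -0.22 ± 0.10 (limma adjusted p = 0.204). Tnfrsf1b read 225 and 158, then 451 and 380 in WT, against 128 and 127, then 108 and 147 in TNFR KO. It rose in WT (1.07 ± 0.20) and lay at -0.01 ± 0.20 in TNFR KO, but the interaction of -1.09 ± 0.28 missed the threshold (limma adjusted p = 0.0655), and the WT call was lost without WT untreated replicate 2 (0.84) or WT irradiated replicate 1 (0.95). A second probe set of Tnfrsf1b gave an interaction of the opposite sign, 1.47. Tnf itself was below the tested level, at 10.2 to 35.0 on the 8 arrays.

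Chemokine and neutrophil genes rose after radiation in WT tumours (13 of 20 and 9 of 11 tested), while no tested member of either list rose in TNFR KO tumours. By contrast, 12 of 24 p53 targets rose in both hosts. In WT, 255 genes (2.25% of those tested) rose and 23 (0.203%) fell; in TNFR KO, 100 (0.881%) rose and 55 (0.485%) fell. The interaction was lower in TNFR KO for 233 genes (2.05%) and higher for 18 (0.159%). Centring the arrays on their medians instead moved the median interaction of all genes from -0.009 to 0.22 and gave 164 lower and 97 higher, so the share of lower calls went from 92.8% to 62.8%. Of the 251 interaction calls, 114 (112 lower, 2 higher) were made whichever array was left out; the 2 higher were Fos and Fndc4, a secreted fibronectin-domain protein (1.28 ± 0.14). Around the 2-fold limit, Plec (-1.0) and Sigirr (1.0) lay just inside it, and Vcam1 (-0.995) and Pfkfb3 (-0.99) just outside.

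**Figure D1:**
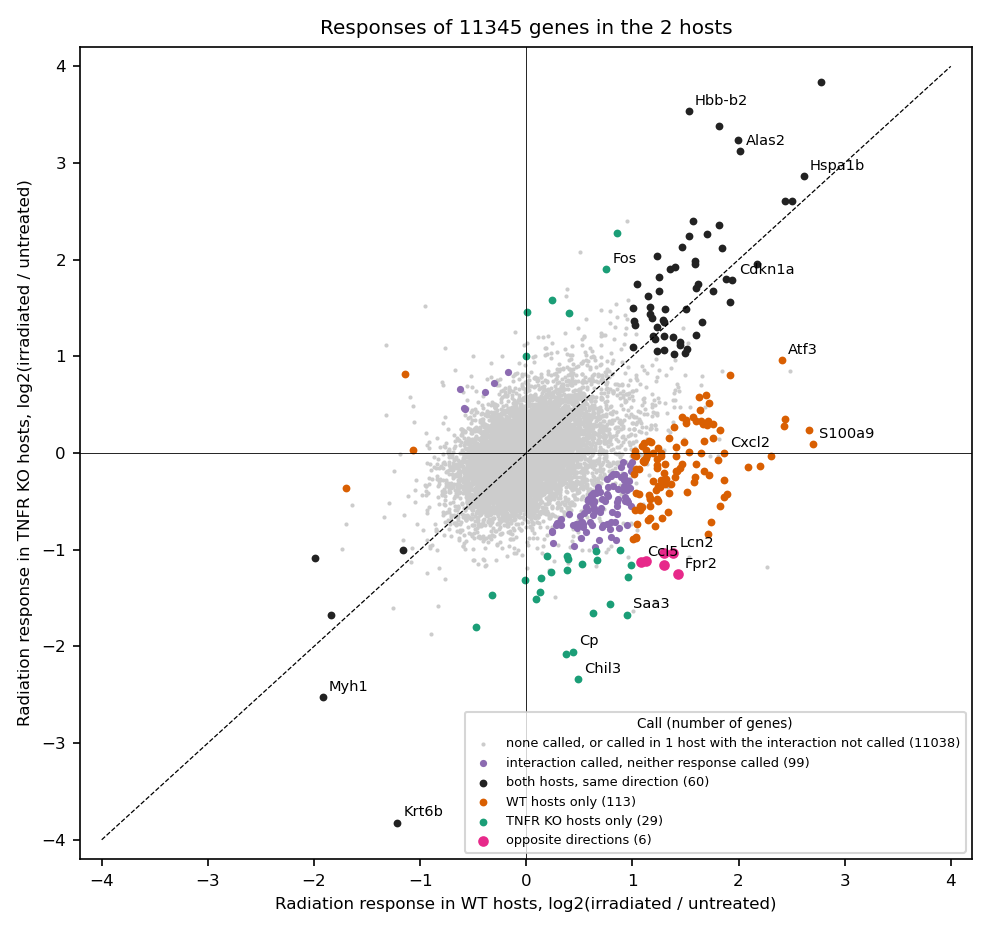
Response to radiation of each tested gene, with the log2 difference between irradiated and untreated tumours in WT hosts on the x axis and in TNFR KO hosts on the y axis; each point is 1 gene and colours mark the response classes. The 110 genes up in WT only sit to the right near a y value of 0, the 60 called in both hosts along the diagonal, and the 6 called oppositely at the lower right.

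Sorted by their calls, 60 genes responded in both hosts in the same direction (55 up; Acta1, Car3, Krt6b, Mecom and Myh1 down), 113 in WT only (110 up; Ccne2, Cpne5 and Mroh2a down), 29 in TNFR KO only (6 up, 23 down) and 6 in opposite directions. A gene counted as responding in 1 host only when the interaction was called too. This left 99 genes called in WT alone and 60 in TNFR KO alone whose interaction was not called, for which a host dependence was not shown. A further 99 genes had an interaction but no response of 2-fold in either host. Responding in 1 host only does not mean a response of 0 in the other: of the 113 WT-only genes, 81 had an adjusted p of 0.05 or more in TNFR KO, 9 had a smaller response in the same direction past that p, and 23 one in the opposite direction. The median responses of the 110 genes up in WT only were 1.33 in WT and -0.12 in TNFR KO, and those of the 55 genes up in both were 1.46 and 1.68.

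The p53 targets, among them inhibitors of the cell cycle, had no called interaction on this scale. Of 24 tested p53 targets, 12 rose in WT, 13 in TNFR KO and 12 in both, and no interaction was called; their medians were 0.99, 1.04 and 0.14, against -0.020, -0.020 and -0.009 over all genes. With arrays centred on the median, 8 rose in WT, 13 rose in TNFR KO and 1, Ccng1, had a higher interaction. Cdkn1a, which encodes the cell cycle inhibitor p21, read 4990 and 5003 untreated and 19463 and 19042 irradiated in WT, and 5480 and 5619 untreated and 19739 and 18701 irradiated in TNFR KO. Irradiated arrays of both hosts overlapped and all lay above the untreated ones. The responses were 1.94 ± 0.06 and 1.79 ± 0.06, an interaction of -0.15 ± 0.08 (limma adjusted p = 0.269). Trp53inp1, a stress protein that supports p53, rose by 1.82 in WT and 2.35 in TNFR KO, with 0.72 and 0.94 on another probe set. The DNA damage-induced Btg2, an inhibitor of proliferation, rose by 1.70 and 2.27. Ccng1, which encodes cyclin G1, read 4677 and 4423 untreated and 10475 and 10971 irradiated in WT, and 1243 and 1150 untreated and 4727 and 5218 irradiated in TNFR KO. Its irradiated TNFR KO arrays thus reached only the untreated WT level, although the rise was larger (2.04 ± 0.08 against 1.23 ± 0.08). Its interaction of 0.81 ± 0.11 (limma adjusted p = 0.0161) was under 2-fold, but it was called with arrays centred on the median (1.03) and on a second probe set (1.02). Mdm2, the ubiquitin ligase that degrades p53, was called in TNFR KO alone (1.39 ± 0.28 against 0.56 ± 0.28), with an interaction of 0.83 ± 0.39 (limma adjusted p = 0.225). That call was lost without TNFR KO untreated replicate 1, untreated replicate 2 or irradiated replicate 1 (1.02 to 1.5), and a second probe set of Mdm2 had the hosts in the other order (1.23 in WT, 1.01 in TNFR KO).

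Several heat shock genes rose in both hosts too. Hspa1b, an inducible HSP70 chaperone, read 2287 and 2062 untreated and 12047 and 14846 irradiated in WT, and 1583 and 1325 untreated and 10753 and 10554 irradiated in TNFR KO. It rose by 2.61 ± 0.13 and 2.87 ± 0.13, and its interaction was 0.25 ± 0.19 (limma adjusted p = 0.419). Hspa1a, a close copy of Hspa1b with which probes may be shared, and Hspb1, a small heat shock protein, rose in both hosts as well, and Dnajb1 in WT (1.40) with 0.96 in TNFR KO. None of the 21 tested genes of the heat shock and unfolded protein list had a called interaction; 4 rose in WT and 3 in TNFR KO.

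Among genes that fell in both hosts were Acta1 and Myh1, the actin and a myosin heavy chain of skeletal muscle, and Car3, a carbonic anhydrase found in muscle and adipose tissue. Myh1 read 338 and 305 untreated and 73.4 and 73.0 irradiated in WT, and 255 and 222 untreated and 31.2 and 25.4 irradiated in TNFR KO. Untreated arrays exceeded irradiated ones by over 2-fold in both hosts. Of 13 skeletal muscle genes 4 fell in WT and 3 in TNFR KO, with median responses of -0.93 and -0.83 and no called interaction (6, 5 and 1 higher with arrays centred on the median). The Acta1 call in TNFR KO (-1.08) was lost with any of the 4 TNFR KO arrays left out (-1.13 to -1.04). Their summed signal went from between 6728 and 6936 to between 3984 and 4084 in WT and from between 5047 and 5269 to between 3998 and 4432 in TNFR KO.

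The neutrophil markers were the list with the lowest median interaction, -1.83 over 11 tested genes. Of these, 9 rose in WT with a median of 1.43, none rose and 1 fell in TNFR KO with a median of 0.063, and the interaction was called lower for 7. S100a9, a calcium-binding protein that is among the most abundant of neutrophils, read 1331 and 1477 untreated and 9008 and 9436 irradiated in WT, and 292 and 303 untreated and 335 and 302 irradiated in TNFR KO. The irradiated WT arrays stood apart from all others, and the TNFR KO arrays overlapped between treatments. It rose 6.51-fold in WT (2.70 ± 0.08) and lay at 0.09 ± 0.08 in TNFR KO, an interaction of -2.61 ± 0.12 (limma adjusted p = 0.000943). Its partner S100a8 gave an interaction of -2.42 ± 0.11. Clec4e, a receptor of myeloid cells for damaged cells and microbes, read 133 and 129 then 687 and 734 in WT, and 36.3 and 46.5 then 39.9 and 40.1 in TNFR KO. Again irradiated WT was highest, while untreated WT already lay above TNFR KO. The interaction was -2.33 ± 0.13 (limma adjusted p = 0.00172). G0s2, an inhibitor of fat breakdown that neutrophils also express, read alike in both hosts before radiation, at 312 and 257 in WT and 307 and 299 in TNFR KO. After radiation it read 952 and 981 in WT and 181 and 147 in TNFR KO, an interaction of -2.55 ± 0.17 (limma adjusted p = 0.00223). The summed signal of the 11 markers went from between 4802 and 5193 to between 26826 and 27931 in WT and stayed between 2033 and 2154 in TNFR KO. Another 4 markers of the list, Cxcr2 the brightest among them, read between 7.3 and 84.8 and were not tested.

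Of 20 chemokines tested, 13 rose in WT (median 1.18), none rose and 2 fell in TNFR KO (median 0.10), and 8 had a lower interaction (median -0.90). Cxcl2, a ligand of the neutrophil receptor CXCR2, read 1860 and 1699 untreated and 6494 and 6493 irradiated in WT, and 284 and 305 untreated and 281 and 308 irradiated in TNFR KO. Its TNFR KO arrays did not differ beyond their spread and lay below every WT array. The response was 1.86 ± 0.08 in WT and -0.00 ± 0.08 in TNFR KO, an interaction of -1.86 ± 0.11 (limma adjusted p = 0.00172). Cxcl3, a further ligand of that receptor, read 582 and 519 then 2633 and 3534 in WT, and 118 and 122 then 135 and 183 in TNFR KO (interaction -2.08 ± 0.26, limma adjusted p = 0.0117). Cxcl1 was higher untreated in TNFR KO than in WT, at 568 and 590 against 307 and 392, and read 836 and 928 in irradiated WT and 507 and 558 in irradiated TNFR KO tumours. Its interaction of -1.42 ± 0.18 and that of Cxcl3 lost the call without TNFR KO untreated replicate 2 (-1.39 and -2.06). Ccl3 and Ccl4, inflammatory chemokines made by macrophages, gave -2.32 ± 0.18 and -1.41 ± 0.08, and Cxcl9, an interferon gamma-induced ligand of the T cell receptor CXCR3, -2.37 ± 0.16. A host difference was not called for the other 12 chemokines. Ccl2, which draws in monocytes, rose in WT by 1.13 with 0.40 in TNFR KO, and its interaction of -0.73 ± 0.19 was not called (limma adjusted p = 0.0658). Cxcl12, made by stromal cells, fell in TNFR KO by 1.11 with 0.26 in WT, and its interaction of -1.37 missed the threshold (limma adjusted p = 0.0879). That fall lost its call when any array but TNFR KO irradiated replicate 1 was left out (-1.13 to -0.66), and without that array the interaction was called (-1.83).

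The upstream stretches of these neutrophil chemokines are shown because they hold the NF-kB motif and the genes shared the WT-only response. The motif searched was GGG, any 3 bases and TTCC, on either strand, in windows from 250 bases before to 50 after a start, and capitals mark its matches; each line gives the 120 bases ending at the start site in GRCm38.p6, from RefSeq, 5′ to 3′ along the gene. Cxcl1 lies at chr5:90891125-90891244, Cxcl2 at chr5:90903779-90903898 and Cxcl3 at chr5:90785981-90786100, all on the plus strand.
Cxcl1: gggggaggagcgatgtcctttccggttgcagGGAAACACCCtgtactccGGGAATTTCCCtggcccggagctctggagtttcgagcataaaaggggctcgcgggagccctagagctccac
Cxcl2: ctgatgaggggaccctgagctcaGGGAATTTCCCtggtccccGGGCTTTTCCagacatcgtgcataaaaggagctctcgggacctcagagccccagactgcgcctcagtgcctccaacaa
Cxcl3: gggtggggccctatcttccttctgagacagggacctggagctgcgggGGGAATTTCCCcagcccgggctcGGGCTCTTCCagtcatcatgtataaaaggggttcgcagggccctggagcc
Each stretch has 3 matches, of which a pair in the run GGGAATTTCCC overlaps because that run reads as a match on both strands. A match describes the letters only.

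Among 19 tested NF-kB targets, 8 rose in WT (median 0.52), none rose and 1 fell in TNFR KO (median -0.065), and the interaction was called lower for 9, with a median of -1.0 and all 19 values below 0. With arrays centred on the median, 3 rose in WT and 5 had a lower interaction. Nfkbia, the inhibitor IkB-alpha that holds NF-kB in the cytoplasm and is among its own targets, read 4571 and 4946 untreated and 11007 and 10381 irradiated in WT. In TNFR KO it read 8532 and 9221 untreated and 6493 and 6229 irradiated. It thus began higher in TNFR KO and, after radiation, lay below irradiated WT. It rose by 1.17 ± 0.07 in WT, with -0.48 ± 0.07 in TNFR KO (limma adjusted p = 0.00945, under 2-fold). The interaction was -1.65 ± 0.11 (limma adjusted p = 0.00202), and further probe sets of Nfkbia gave -1.66 to -0.93. Tnfaip3, or A20, a ubiquitin-editing enzyme that ends NF-kB signalling, read 198 and 184 then 527 and 553 in WT, and 217 and 220 then 190 and 190 in TNFR KO (interaction -1.61 ± 0.09, limma adjusted p = 0.00172). All but the irradiated WT arrays were at a like level. Birc3, an inhibitor of apoptosis in the TNF receptor complex, gave -1.84 ± 0.22, a call lost with the mean of its probe sets (-1.44), and Icam1, an adhesion molecule for leukocytes, -1.20 ± 0.14, a call lost with quantile normalization or median centring (-0.97 in both). Relb, an NF-kB subunit, was the member that fell in TNFR KO: it read 568 and 600 untreated and 263 and 279 irradiated there, against 179 and 207 and then 317 and 207 in WT. Its interaction of -1.45 ± 0.26 lost the call when any of 6 of the 8 arrays was left out (-1.55 to -1.36), and its response in TNFR KO (-1.07) when any of the 4 TNFR KO arrays was (-1.11 to -1.02).

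The NF-kB motif was in 9 of the 19 promoter windows of this list (47.4%), 5 of the 14 of the chemokines (35.7%) and 19 of the 103 of genes up in WT only (18.4%), against 5.88% of the 68 windows of genes up in both hosts, 8% of those with an interaction only, 2.11% of the 95 of genes called in WT with no called interaction, 0 of the 23 of genes down in TNFR KO only, 0 of the 4 of opposite genes, 6.2% of those of all tested genes and 5.56% of all windows. It was also in 6 of the 31 of the interferon list (19.4%) and 1 of the 4 of genes up in TNFR KO only (25%). Genes called in TNFR KO with no called interaction had it in 5 of 63 windows (7.94%). Several windows of a gene overlap and are not independent, and the lists were chosen by known function. The Nfkbia stretch, on the minus strand at chr12:55492648-55492767, holds a single match close to the start.
Nfkbia: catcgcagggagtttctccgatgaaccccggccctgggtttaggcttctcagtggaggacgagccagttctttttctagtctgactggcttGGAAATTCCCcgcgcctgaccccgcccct

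Of 11 tested interleukin-1 and acute phase genes, 6 rose in WT, 1 rose and 3 fell in TNFR KO, and 6 had a lower interaction; the medians were 1.22, -0.17 and -1.37. Il1b, the cytokine interleukin-1 beta, read 478 and 591 untreated and 2304 and 2320 irradiated in WT, and 273 and 274 untreated and 250 and 241 irradiated in TNFR KO. Irradiated WT was highest, untreated WT lay above TNFR KO, and the interaction was -2.23 ± 0.14 (limma adjusted p = 0.00200). Its receptor antagonist Il1rn read nearly the same in both hosts untreated (307 and 304 in WT, 304 and 305 in TNFR KO). Irradiated, Il1rn read 1019 and 1004 in WT and 265 and 267 in TNFR KO. Its interaction was -1.86 ± 0.07 (limma adjusted p = 0.000943), with -1.68 and -0.71 on further probe sets. Saa3, a serum amyloid protein made by macrophages and stroma, moved most in TNFR KO, where it read 1698 and 1571 untreated and 485 and 519 irradiated, against 2312 and 2103 and then 4355 and 4195 in WT. It fell in TNFR KO by 1.67 ± 0.08, its response in WT was 0.95 ± 0.08, and the interaction was -2.62 ± 0.11 (limma adjusted p = 0.000943). Lif, a cytokine of the interleukin-6 family, was the member that rose in TNFR KO (1.21, with 0.70 in WT and an interaction of 0.51), a call lost when any of 7 arrays was left out (0.69 to 1.30).

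**Figure D2:**
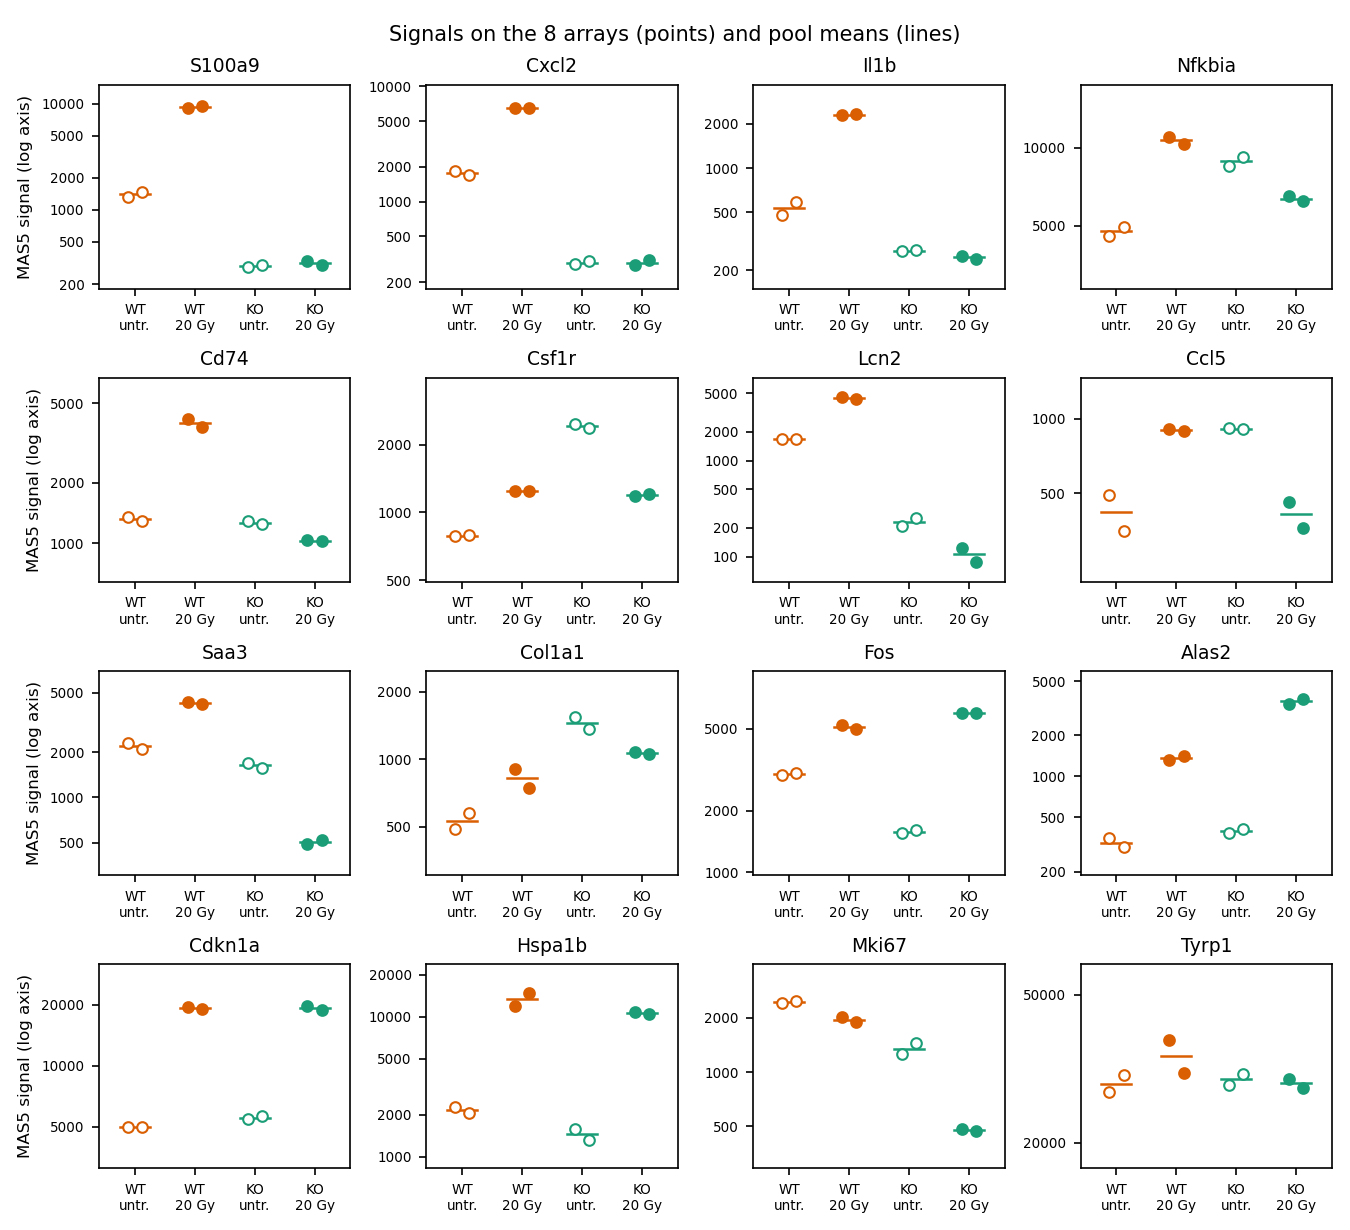
MAS5 signal of 16 genes on each of the 8 arrays, on a log axis that differs between panels; each point is 1 array, the line is the mean of the pool's 2 arrays, open points are untreated and filled ones irradiated. S100a9 and Cxcl2 are highest in irradiated WT tumours, and higher in untreated WT than in TNFR KO tumours. Cdkn1a is high in irradiated tumours of both hosts, and Ccl5 and Lcn2 move in opposite directions.

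Of 21 macrophage markers tested, 16 had a lower interaction, and all 21 values were below 0, with a median of -1.37. In WT 6 rose (median 0.87) and in TNFR KO 2 fell (median -0.42), and 8 of the 16 had an interaction without a 2-fold response in either host. With arrays centred on the median, 2 rose in WT and 11 had a lower interaction; with quantile normalization, 8 and 14. The untreated hosts were not alike: the summed signal of the 21 markers was 13061 to 13202 untreated and 26336 to 26391 irradiated in WT, and 23178 to 24346 untreated and 16276 to 17004 irradiated in TNFR KO. Csf1r, the receptor for the macrophage growth factor CSF1, read 787 and 792 then 1251 and 1251 in WT, and 2481 and 2382 then 1189 and 1207 in TNFR KO. Irradiated tumours of both hosts thus came to nearly the same level from opposite sides. The interaction was -1.67 ± 0.08 (limma adjusted p = 0.000977), with -1.28 and -1.07, neither called, on further probe sets of Csf1r. The call of the fall in TNFR KO (-1.01) was lost without TNFR KO untreated replicate 1 (-0.98). C1qa, a chain of complement C1q, showed the same order with 1348 and 1311 then 2295 and 2384 in WT, and 3115 and 3038 then 2054 and 1964 in TNFR KO (interaction -1.42 ± 0.08, limma adjusted p = 0.00172). Cd14, the co-receptor for bacterial lipopolysaccharide, differed in pattern, since both hosts began at a like level (452 and 381, against 477 and 397). It read 2350 and 2255 in irradiated WT and 553 and 511 in irradiated TNFR KO, an interaction of -2.15 ± 0.17 (limma adjusted p = 0.00298). Chil3, a chitinase-like protein of alternatively activated macrophages, had the lowest called interaction among the brightest probe sets of all genes, -2.83 ± 0.23 (limma adjusted p = 0.00310). It read 118 and 118 then 180 and 164 in WT, and 214 and 195 then 20.6 and 35.5 in TNFR KO, where only the irradiated arrays were dim. Srgn, the granule proteoglycan of blood cells, and Wfdc17, a secreted protein of activated macrophages, also responded in WT only, with interactions of -2.34 ± 0.13 and -2.32 ± 0.09.

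Genes of class II antigen presentation, which macrophages, dendritic cells and B cells carry out, were among those up in WT only. H2-Eb1, a class II beta chain, read 523 and 620 untreated and 2099 and 1978 irradiated in WT, and 642 and 587 untreated and 574 and 590 irradiated in TNFR KO. All groups but irradiated WT overlapped, and the interaction was -1.89 ± 0.14 (limma adjusted p = 0.00267). Cd74, the invariant chain that escorts class II molecules, gave -1.88 ± 0.10, H2-DMa, which loads their peptides, -1.96 ± 0.16 and H2-Aa -1.29 ± 0.10. Tap1, the peptide transporter of the class I route, rose in both hosts, from 983 and 1040 to 2863 and 2714 in WT and from 1068 and 1089 to 2429 and 2284 in TNFR KO. Its interaction was -0.33 ± 0.09 (limma adjusted p = 0.0781). Tapbp, also of the class I route, differed from Tap1, with responses of 0.53 in WT and -0.77 in TNFR KO. Its interaction of -1.30 was called whichever array was left out, with -0.76 on another probe set. The class I genes H2-K1 and H2-D1 were not called (-0.58 and -0.57), but their further probe sets gave -2.19 to -0.90 and -1.97 to 0.39, some of them called lower. In all, 9 of 15 tested genes of the list rose in WT and 1 in TNFR KO, and 6 had a lower interaction (medians 1.13, 0.044 and -0.80); with arrays centred on the median, 5 rose in WT and 5 had a lower interaction.

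Of 31 interferon response genes, 5 rose in WT, 1 rose in TNFR KO and 7 had a lower interaction (medians 0.53, -0.006 and -0.55); with arrays centred on the median, 3 rose in WT. Gbp2, a guanylate-binding protein against intracellular microbes, read 663 and 631 then 1859 and 1621 in WT, and 267 and 281 then 244 and 214 in TNFR KO. Irradiated WT was again the highest group, and untreated WT lay above TNFR KO (interaction -1.65 ± 0.14, limma adjusted p = 0.00359). Irf7, the transcription factor that amplifies type I interferon, gave -1.73 ± 0.16. Isg20, an exonuclease against viral RNA, rose in both hosts (1.52 and 1.07); its call in TNFR KO was lost without untreated replicate 2 or irradiated replicate 2 (1.02 and 0.95). Ifit1, which binds viral RNA, read 384 and 312 then 713 and 657 in WT, and 163 and 175 then 121 and 112 in TNFR KO; its interaction of -1.43 ± 0.15 (limma adjusted p = 0.00809) came from responses of 0.95 and -0.48. Its upstream 120 bases are shown as an example of the interferon-stimulated element, searched as GAAA, any 2 bases and GAAA on either strand (capitals), at chr19:34640769-34640888 on the plus strand of GRCm38.p6, from RefSeq.
Ifit1: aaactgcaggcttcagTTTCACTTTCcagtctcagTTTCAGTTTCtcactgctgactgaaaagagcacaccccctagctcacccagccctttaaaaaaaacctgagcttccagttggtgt
That motif was in 17 of the 31 promoter windows of the interferon list (54.8%) and 3.44% of all 32851 windows. It was in 7 of the 103 windows of genes up in WT only (6.8%), against 2.89% of those of all tested genes. Other classes had like shares: 7% with an interaction only, and 6.35% and 5.26% for genes called in TNFR KO or in WT with no called interaction. Genes up in both hosts had 1.47%.

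Only 3 of 17 lymphocyte markers on the array reached the tested level and none was called; the other 14 read between 2.4 and 176, Gzmb, a protease of cytotoxic lymphocytes, the brightest of them.

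More fibroblast and matrix genes had a called interaction than a called response. Of 27 tested, 14 had a lower interaction, 26 lay below 0 and the median was -1.06, but only 5 rose in WT (median 0.65) and 1 fell in TNFR KO (median -0.50). With quantile normalization 2 rose in WT; with arrays centred on the median none did, and 10 had a lower interaction. For Col12a1, a collagen below 0 and not called on the probe set used, a further probe set had a called interaction of the opposite sign, 1.52. Further probe sets of Bgn (-1.62 and -1.48) and Col1a2 (-1.39) were called lower. Col3a1, a fibrillar collagen, read 1727 and 1858 then 2916 and 2915 in WT, and 5565 and 5664 then 3572 and 3755 in TNFR KO. The TNFR KO tumours were the higher at both states, and radiation brought the hosts closer (interaction -1.31 ± 0.09, limma adjusted p = 0.00228). Tnc, the matrix protein tenascin C, showed a larger gap, with 235 and 265 then 549 and 506 in WT, and 1553 and 1494 then 813 and 835 in TNFR KO. Its interaction was -1.91 ± 0.11 (limma adjusted p = 0.00172) and was -0.89, under 2-fold, with the mean of its probe sets; its rise in WT (1.03) lost the call without WT untreated replicate 1 or WT irradiated replicate 1 (0.95 and 0.98). The summed signal of the 27 genes was 52105 to 55411 untreated and 71288 to 74990 irradiated in WT, and 83228 to 84805 untreated and 72412 to 72661 irradiated in TNFR KO. Xist was likewise higher after radiation in WT and lower after it in TNFR KO, from a higher start there, and its part in these values was not tested. Among 13 matrix metalloproteinases and inhibitors 4 rose in WT, none was called in TNFR KO and 5 had a lower interaction; 2 rose in WT with either other scaling, and 3 (quantile) or 4 (median centring) had a lower interaction. Of these, Mmp13, a collagenase, gave -1.90 ± 0.31, a call lost when any of 5 arrays was left out (-1.97 to -1.69).

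The 6 genes called in opposite directions were Ccl5, Fpr2, Hp, Lcn2, Lox and Urah, all up in WT and down in TNFR KO. Ccl5, a chemokine for T cells and monocytes, read 492 and 352 untreated and 905 and 892 irradiated in WT, and 913 and 907 untreated and 462 and 361 irradiated in TNFR KO. Untreated TNFR KO lay close to irradiated WT, and irradiated TNFR KO overlapped untreated WT. The responses were 1.08 ± 0.18 and -1.13 ± 0.18, and the interaction was -2.21 ± 0.25 (limma adjusted p = 0.00935). Lox, which cross-links collagen, was highest in irradiated WT and lowest in irradiated TNFR KO, with 78.5 and 64.7 then 178 and 173 in WT, and 117 and 106 then 45.7 and 40.0 in TNFR KO. It was the only one of the 6 that kept both calls whichever array was left out (interaction -2.25 ± 0.14, limma adjusted p = 0.00198). Lcn2, the iron-sequestering protein lipocalin 2, was higher on every WT than on every TNFR KO array, at 1696 and 1681 then 4535 and 4334 in WT and 206 and 254 then 122 and 87.5 in TNFR KO. Its fall in TNFR KO (-1.03 ± 0.16) lost the call without TNFR KO untreated replicate 2 or irradiated replicate 2 (-0.89 and -0.82), while its interaction of -2.42 ± 0.22 (limma adjusted p = 0.00517) kept it. Hp, the haemoglobin-binding haptoglobin, gave responses of 1.30 and -1.03 (interaction -2.33 ± 0.28); without WT untreated replicate 2 the rise was 0.99, the fall was not called when any of 3 TNFR KO arrays was left out (-1.04 to -0.92), and the interaction not without TNFR KO untreated replicate 2 (-2.32). The Ccl5 rise was not called without WT untreated replicate 2 or WT irradiated replicate 1 (0.85 and 1.07), nor its fall without TNFR KO untreated replicate 1 or irradiated replicate 2 (-1.12 and -0.95). Fpr2, a formyl peptide receptor of neutrophils, and Urah, a urate pathway enzyme, were less sure: their interactions of -2.68 ± 0.44 and -2.45 ± 0.36 lost the call when any of 6 arrays was left out (-2.80 to -2.57 and -2.50 to -2.40), and each stayed among the opposite genes in only 1 of the 8 fits that left out an array. The interaction of Urah was not called with the mean of its probe sets (-1.66).

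Among all 233 genes with a lower interaction, 193 had a response above 0 in WT and below 0 in TNFR KO (82.8%), 36 had both above 0 and the others both below 0. Over all tested genes 18.3% had that first pattern. Choosing genes by a lower interaction itself favours that pattern, so the higher share among them is no separate result. Most of the 233 genes had a response that was not called in 1 or both hosts, so the sign is a description.

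**Figure D3:**
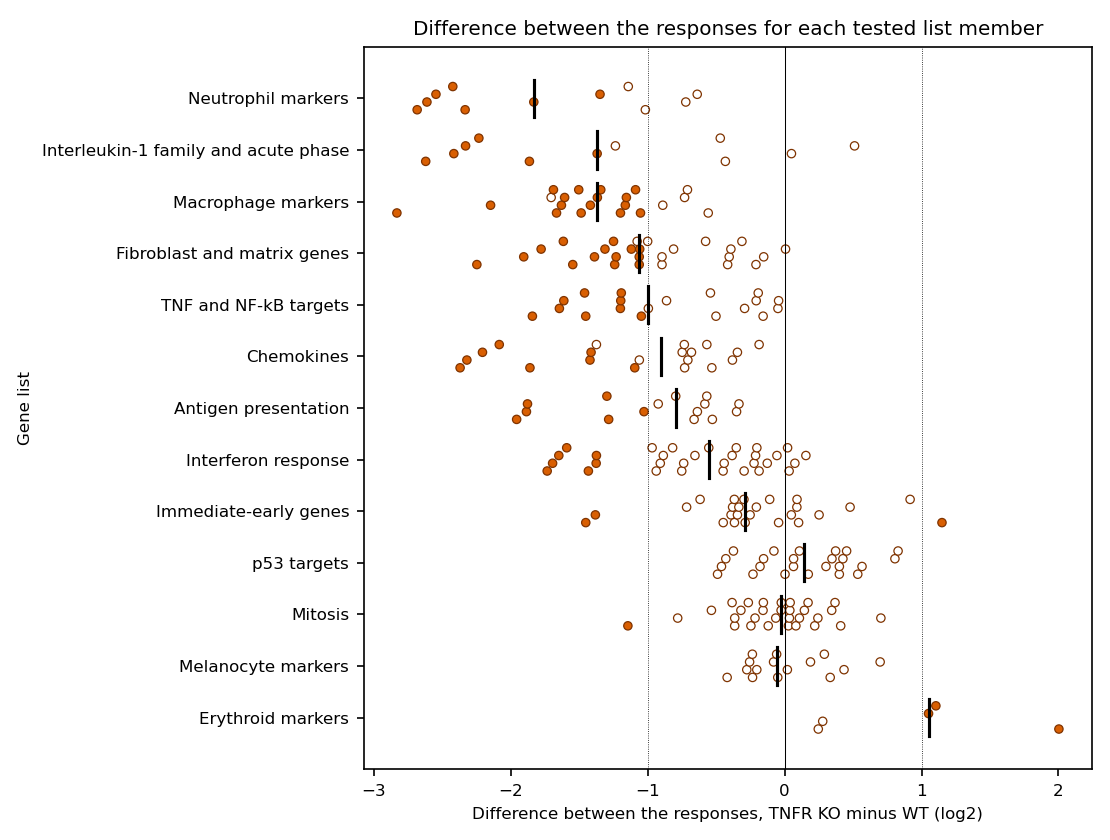
Interaction of every tested member of 13 lists, as the log2 response in TNFR KO minus that in WT on the x axis; each circle is 1 gene, filled where the interaction was called, and the bar is the list's median. Neutrophil members lie from -2.68 to -0.64, while p53 targets lie from -0.49 to 0.83 with none filled.

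Genes that fell in TNFR KO only numbered 23, with medians of -1.30 there and 0.40 in WT. Cp, the copper protein ceruloplasmin, read 1115 and 1116 untreated and 268 and 245 irradiated in TNFR KO, against 599 and 599 and then 848 and 787 in WT. It fell 4.15-fold in TNFR KO (-2.05 ± 0.07), with 0.44 ± 0.07 in WT and an interaction of -2.49 ± 0.10 (limma adjusted p = 0.000943). Mki67, the proliferation marker Ki-67, read 2418 and 2474 then 2015 and 1884 in WT, and 1258 and 1445 then 484 and 469 in TNFR KO. All WT arrays were above all TNFR KO arrays, and the response was -1.47 ± 0.08 in TNFR KO against -0.33 ± 0.08 in WT (interaction -1.14 ± 0.12, limma adjusted p = 0.00692; -0.92 with arrays centred on the median). Of 30 mitosis genes, 29 had no called interaction and Mki67 was the 1 called, where 2.05% of all tested genes were called lower. The medians were -0.54 in WT, -0.56 in TNFR KO and -0.025 for the interaction. For Kif2c (-0.024), a further probe set had a called interaction of -1.48, while others gave -0.12 and 0.50. Cenpf, Kif23 and Hmmr, of the mitotic apparatus, fell in TNFR KO (-1.19, -1.16 and -1.30), with interactions of -0.36, -0.78 and -0.53, although Kif23 was not called without TNFR KO untreated replicate 2 (-1.0), and further probe sets gave 0.40 for Cenpf, -0.80 for Kif23 and -0.88 to -0.52 for Hmmr. With arrays centred on the median, 5 of the 30 fell in each host and none had a called interaction.

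Of 28 DNA replication genes tested, 24 had an interaction above 0, with a median of 0.34, and responses of -0.29 in WT and 0.089 in TNFR KO at the median. Relative to all genes the median was 0.35, and 0.27 with quantile normalization. A single gene was called (2 with either other scaling), Ccne2, the S phase cyclin E2, which read 401 and 396 then 182 and 182 in WT, and 152 and 136 then 125 and 173 in TNFR KO. Its fall in WT (-1.06 ± 0.14) ended just above the level that TNFR KO tumours had in either state, and the interaction of 1.10 ± 0.20 (limma adjusted p = 0.0286) lost its call when any of 7 arrays was left out (0.89 to 1.17).

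Genes that rose in TNFR KO only were Fbrsl1, Fos, Gcdh, Plekha7, Slc4a1 and Snorc. Of the 8 fits that left out an array, Fos kept this class in 8, Plekha7 in 3, Slc4a1 in 2, Fbrsl1 and Snorc in 1 and Gcdh in 0. Further probe sets of Fbrsl1 gave interactions of -0.14 and 0.49, against 1.35 on the one used. Fos, a subunit of the transcription factor AP-1 and a classical immediate-early gene, read 2992 and 3045 then 5239 and 4974 in WT, and 1554 and 1606 then 5975 and 5940 in TNFR KO. Irradiated TNFR KO was the highest group and untreated TNFR KO the lowest. It rose 3.74-fold in TNFR KO (1.90 ± 0.06), with 0.76 ± 0.06 in WT, also past the adjusted p there (0.00120 by limma), and the interaction was 1.15 ± 0.08 (limma adjusted p = 0.00258) and called whichever array was left out. Plekha7, of epithelial junctions, had an interaction of 1.42 ± 0.22, lost when any of 5 arrays was left out (1.25 to 1.47) and with the mean of its probe sets (0.77).

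Other immediate-early genes did not share the pattern of Fos. Atf3, a transcription factor induced by stress, read 423 and 464 then 2452 and 2401 in WT, and 621 and 573 then 1216 and 1134 in TNFR KO. It was higher after radiation in both hosts, but less so in TNFR KO (2.41 ± 0.08 and 0.96 ± 0.08; interaction -1.45 ± 0.11, limma adjusted p = 0.00282). The response in TNFR KO reached 2-fold without TNFR KO untreated replicate 1 or irradiated replicate 2 (1.02 and 1.01), so Atf3 belongs to WT only by a narrow margin. Klf4, a transcription factor, gave -1.38 ± 0.23, a call lost when any of 6 arrays was left out (-1.46 to -1.30). Fosb and Jun, further AP-1 subunits, rose in both hosts by 2.50 and 2.61 and by 1.45 and 1.15, although another probe set of Jun gave 0.060 and 0.52. Of 25 genes tested 10 rose in WT and 5 in TNFR KO, with 1 interaction higher and 2 lower (medians 0.93, 0.62 and -0.29); with arrays centred on the median, 6 rose in WT and 2 interactions were higher.

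Of 5 red cell genes tested, 2 rose in WT and 3 in TNFR KO. Alas2, the first enzyme of haem synthesis in red cell precursors, read 351 and 302 then 1324 and 1405 in WT, and 382 and 412 then 3426 and 3723 in TNFR KO. The untreated hosts were close and irradiated TNFR KO the highest (responses 2.01 ± 0.09 and 3.12 ± 0.09; interaction 1.10 ± 0.13, limma adjusted p = 0.0112). That call was lost without WT untreated replicate 1 (1.00) and with quantile normalization. The interaction was higher for 3 of the 5 (2 with quantile normalization). For Hbb-b2, a beta globin, the 2.00 ± 0.42 lost its call with any array left out (1.70 to 2.31) and with the mean of its probe sets (1.02). Its second probe set gave -0.21 in WT and -0.17 in TNFR KO, and near-identical globin genes may share its probes. Slc4a1, the red cell anion exchanger, gave 1.05 ± 0.17, lost with any of 6 arrays left out (0.91 to 1.10).

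Skin markers differed before radiation. Krt6b, a keratin of injured epidermis, read 960 and 1031 in untreated and 40.5 and 74.4 in irradiated TNFR KO tumours, but 53.3 and 29.0 and then 8.0 and 8.0 in WT. Untreated TNFR KO stood alone. The interaction of -2.60 ± 0.39 (limma adjusted p = 0.0185) lost its call without either irradiated WT array (-2.60 both times), and the WT values were near the bottom of the scale. The 6 tested keratinocyte genes summed to 2795 to 3112 in untreated TNFR KO and to 649 to 1266 in the other pools. Another 16 markers of the list read between 1.2 and 399 and were not tested. Krt1 read 398 and 399 in untreated and 39.6 and 35.6 in irradiated TNFR KO tumours, and 6.1 to 37.7 in WT. Krt10, Krt14 and Krt16 were also brightest in untreated TNFR KO, but Ivl and Sfn read at most 41.1. Further probe sets gave a called interaction of -4.07 for Krt6a and 0.65, not called, for Lor. Of 19 endothelial genes, only Cldn5, a tight junction protein of endothelium, was called on the probe sets used (interaction -1.35 ± 0.15). For Flt1 (-0.84), also of that list, a further probe set had a called interaction of -1.65, while another gave -0.81. Fabp4, the fatty acid carrier of fat cells, macrophages and capillaries, was the only one called of 4 adipocyte genes (-1.32 ± 0.08, or -0.88 with the mean of its probe sets).

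**Figure D4:**
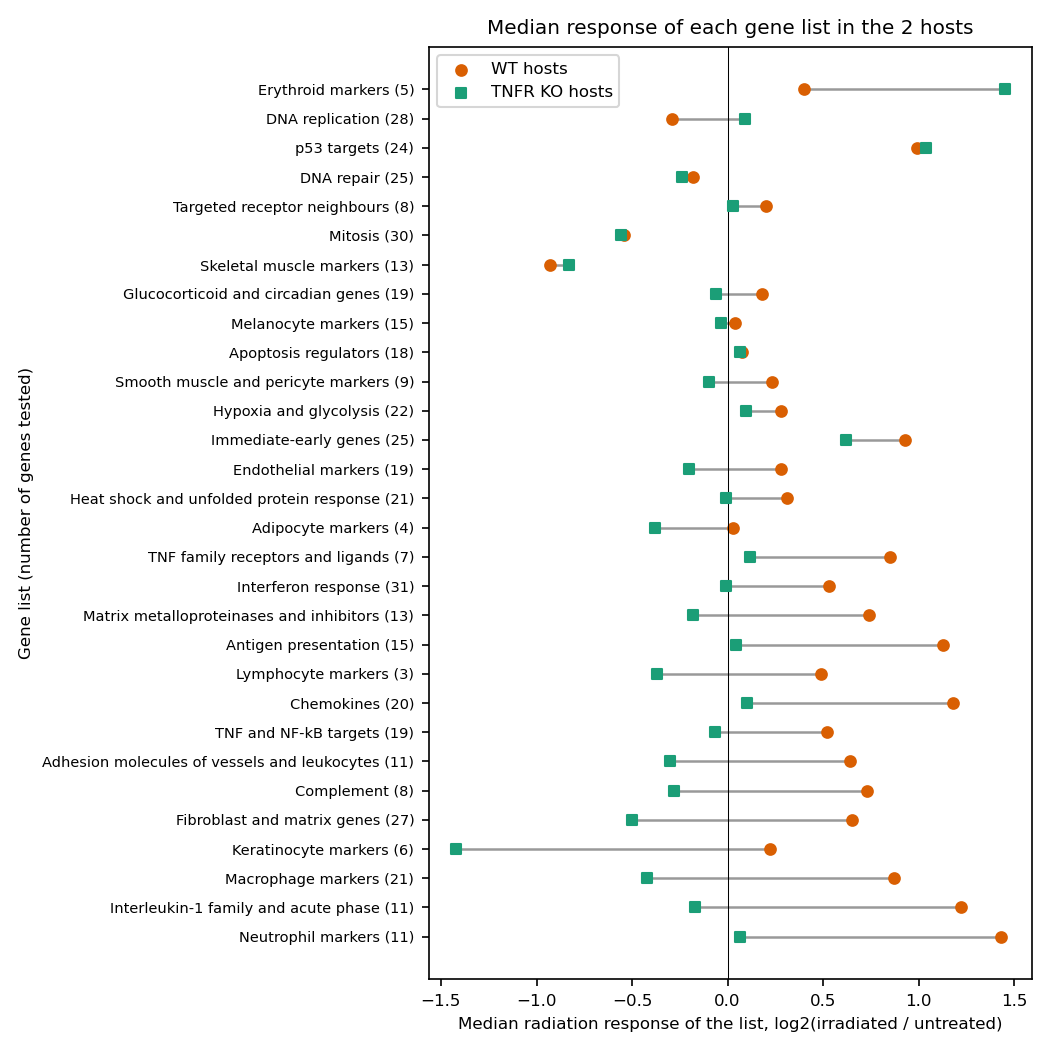
Median log2 response of each gene list in WT and TNFR KO hosts, with the number of tested genes per list. The neutrophil list lies at 1.43 in WT and 0.063 in TNFR KO, while the p53 targets lie at 0.99 and 1.04.

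Several lists had no called interaction, but over all tested genes only 2.05% were called lower and 0.159% higher. In lists this small, a lack of calls therefore does not show a lack of host dependence. None of 25 DNA repair, 22 hypoxia and glycolysis, 18 apoptosis and 9 smooth muscle and pericyte genes was called in either response or in the interaction. Their median interactions were 0.058, -0.25, -0.12 and -0.22, and 10, 20, 11 and 5 of the values lay below 0. With arrays centred on the median, 2 DNA repair genes were called lower in WT and 1 apoptosis gene had a higher interaction, and single further probe sets of Brca1 (1.03) and Bcl2 (-1.11) had a called interaction. The 8 tested genes that neighbour Tnfrsf1a and Tnfrsf1b, listed because the name of the KO stock includes 129, had a median interaction of 0.004 and no call, or 1 lower call with quantile normalization. Of the TNF family itself, 7 genes were tested: Tnfrsf10b, the TRAIL receptor and a p53 target, rose in both hosts (1.5 and 1.04; not called in TNFR KO without untreated replicate 2 or irradiated replicate 1, 0.95 both times), and Tnfrsf9, a co-stimulatory receptor, had a lower interaction (-1.48 ± 0.16), a call lost with the mean of its probe sets.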

How the data were processed

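B16F1 tumours of 4 groups were profiled on Affymetrix Mouse Genome 430 2.0 arrays, 2 per RNA pool. The deposited intensity values are linear MAS5 signals made by the authors, per the submitters' processing notes; the 2% trimmed mean is 500 on every array. For each gene, the probe set with the highest mean among those that name no other gene was used. Genes with a mean log2(signal + 16) of at least 6.41 were tested, 11345 of 18193. One mean per pool was fitted to all 8 arrays with limma 3.58.1 in R 4.3.3 (4 residual degrees of freedom), with Benjamini-Hochberg adjustment over all tested genes; the steps were tested on simulated data. The p-values measure only the spread between duplicate arrays. Sums of a list add the signals of its tested members. Promoter windows came from RefSeq (GRCm38.p6). Replicate numbers do not pair the arrays: deviations of same-numbered arrays correlated at -0.0318 to 0.0520. Alternatives changed the scaling, pseudocount, filter, probe set rule, fold limit, variance model and arrays used.

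The members and the 30 gene lists were chosen with earlier results of these data known. Genes were to be named by a rule: the receptors, Tnf, Cdkn1a and Mdm2, the largest interactions in each direction and class, all opposite genes and the leading members of each list; others named, such as Xist, Fndc4 and the genes of the paragraphs on single roles, were chosen after their values were seen.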

Additional observations from a re-analysis of the deposited data

Results flagged for a closer look

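The genes below are those named in the text above whose difference between the hosts was tested as an interaction and called. They are not all of the 251 called, and some were chosen after their values were seen. Calls lost when an array was left out are given above and not repeated here. The value is the log2 response in TNFR KO minus that in WT. Of neutrophil genes, S100a9 gave -2.61, S100a8 -2.42, Clec4e -2.33, G0s2 -2.55 and Fpr2 -2.68. Chemokines gave -1.86 for Cxcl2, -2.08 for Cxcl3, -1.42 for Cxcl1, -2.32 for Ccl3, -1.41 for Ccl4, -2.37 for Cxcl9 and -2.21 for Ccl5. Interleukin-1 and acute phase genes gave -2.23 for Il1b, -1.86 for Il1rn, -2.62 for Saa3, -2.42 for Lcn2 and -2.33 for Hp. NF-kB targets and a TNF family receptor gave -1.65 for Nfkbia, -1.61 for Tnfaip3, -1.84 for Birc3, -1.20 for Icam1, -1.45 for Relb and -1.48 for Tnfrsf9.

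Macrophage and myeloid genes gave -1.67 for Csf1r, -1.42 for C1qa, -2.15 for Cd14, -2.83 for Chil3, -2.34 for Srgn and -2.32 for Wfdc17. Antigen presentation and interferon genes gave -1.89 for H2-Eb1, -1.88 for Cd74, -1.96 for H2-DMa, -1.29 for H2-Aa, -1.65 for Gbp2, -1.73 for Irf7 and -1.43 for Ifit1. Stromal genes gave -1.31 for Col3a1, -1.91 for Tnc, -1.90 for Mmp13, -2.25 for Lox, -1.35 for Cldn5 and -1.32 for Fabp4. Further genes with a lower response in TNFR KO were Cp (-2.49), Urah (-2.45), Krt6b (-2.60), Mki67 (-1.14), Atf3 (-1.45), Klf4 (-1.38) and Xist (-1.47). Those with a higher response were Fos (1.15), Fndc4 (1.28), Plekha7 (1.42), Ccne2 (1.10), Alas2 (1.10), Hbb-b2 (2.00) and Slc4a1 (1.05). Outside the genes, the dap control, added before labelling, read 22058 in the irradiated WT pool and 19.4 in the irradiated TNFR KO pool.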

How the results depend on the processing

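There was 1 pool per group, so no value here carries the spread between animals, and the hosts' strain background and receptor loss cannot be told apart. Stability was followed for 90 genes with a called interaction, taken from the naming rule and the text; Plec and Sigirr were not among them. Over the alternatives in which each was still tested, 90 kept the direction, 52 kept the call whichever array was left out and 32 kept it throughout.

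The causes of the following shifts were not tested, apart from those set by the alternative itself (fewer genes or a different limit). With arrays centred on the median, WT had 133 genes higher and 106 lower, the interaction 97 higher, and 72 genes were WT only; with quantile normalization the interaction was higher for 32. With a pseudocount of 64, WT had 164 higher and 10 lower, TNFR KO 25 lower, the interaction 7 higher, and 1 gene was opposite and 17 were TNFR KO only. With a filter at the 75th percentile, WT had 97 higher and 7 lower, TNFR KO 57 and 15, the interaction 9 and 89, and the classes held 35 (both), 2 (opposite), 42 (WT only) and 9 (TNFR KO only). With the mean of probe sets, WT had 12 lower and TNFR KO 31, and 19 were TNFR KO only. At 1.5-fold, WT had 628 higher and 249 lower, TNFR KO 337 and 423, the interaction 164 and 483, and the classes 205, 38, 256 and 136 in that order. At 3-fold, WT had 62 and 7, TNFR KO 35 and 12, the interaction 2 and 81, and the classes 20, 0, 21 and 7. By size alone the interaction was higher for 65 genes, 11 were opposite and 56 TNFR KO only; with the limma trend it was higher for 28. With the replicate number as a block, which the data gave no pairing for, it was higher for 7 genes and called for 193 in all, 189 of them shared.

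Leaving out each array in turn gave 211 to 264 genes higher and 19 to 42 lower in WT, 92 to 114 higher and 35 to 74 lower in TNFR KO, and 7 to 20 higher and 148 to 196 lower for the interaction. The classes then ranged from 54 to 59 (both), 2 to 7 (opposite), 73 to 99 (WT only) and 12 to 34 (TNFR KO only).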
